A study of Danio rerio with 24 samples.

Results

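The cone and rod opsins described here are the 9 visual opsin genes of zebrafish: rho, opn1sw1, opn1sw2, opn1mw1, opn1mw2, opn1mw3, opn1mw4, opn1lw1 and opn1lw2. They are the rows of the gene count table that carry these names, 9 of 37660 genes, and each name matched 1 row. The libraries came from whole embryos at 3 days post fertilization, in pools of about 50. The 6 groups of 4 libraries crossed genotype with treatment. The wild-type (WT) groups received the vehicle DMSO or 0.5 µM of ML233, a small molecule, during 3 h or 24 h, and the knockout (KO) groups received the same. ML233 is known as an agonist of the apelin receptor, and the study's title names it as a tyrosinase inhibitor. The KO embryos were aplnr(a/b) mutants made by Cas9 in the AB strain, per the growth protocol, and the WT embryos descended from the same grandparents. The sample titles name an apelin receptor knockout, the design text names an apelin knockout, and the protocol describes mutants of both kinds. The DMSO groups are labelled 0 h, so the ML233 treatment and the hour of collection cannot be told apart. The labels call the 4 libraries of a group biological replicates without naming their clutches, so p-values measure only the spread between these libraries.

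Opsins are G protein-coupled receptors that bind a retinal chromophore and start the light response of photoreceptors. Rhodopsin, encoded by rho, serves rods, and the cone opsins serve cones tuned to ultraviolet (opn1sw1), blue (opn1sw2), green (opn1mw1 to opn1mw4) and red light (opn1lw1 and opn1lw2). In zebrafish the green and the red opsins lie in tandem arrays, in which opn1mw1 and opn1lw2 are known to come on in the larval retina before the other members. In whole-embryo RNA, fewer photoreceptors and less opsin mRNA per photoreceptor cannot be told apart.

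Total counts were 29 to 43.4 M per library. The counts of aplnrb, a gene of the receptor pair targeted in the mutants, were 21.4 to 27.0 CPM (counts per 1 M counts, on library sizes scaled by TMM) in the WT libraries and 9.70 to 17.7 CPM in the KO libraries. Coding-sequence indels need not remove the mRNA, so this level is a limited check of the labels. A set of 6 KO libraries stood apart from the other 6 on the first principal component of all tested genes except the opsins: DMSO replicates 2 and 4, 3 h replicates 3 and 4, and 24 h replicates 2 and 4. That component held 41.6% of the variance, and its scores were 37.5 to 143.2 in these libraries and -47.5 to -27.8 in the other 6 KO libraries. WT replicates 3 and 4 of every treatment stood apart from WT replicates 1 and 2, at -5.6 to 43.4 against -51.0 to -42.8. Results that rest on these libraries are given with and without them below.

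On the GRCz11 build the genes lie at 4 places. The rho gene was annotated on chromosome 8 at 54076195 to 54077740, and opn1sw1 on chromosome 4 at 13577665 to 13580348, both on the minus strand. The green opsins follow each other on the plus strand of chromosome 6: opn1mw1 at 41181869 to 41183823, opn1mw2 at 41186320 to 41189460, opn1mw3 at 41191482 to 41193419 and opn1mw4 at 41200500 to 41202554. On chromosome 11, opn1sw2 at 25459697 to 25475403 is followed by opn1lw1 at 25477643 to 25480037 and opn1lw2 at 25481046 to 25483206, all on the plus strand. Reads shared between the near-identical green or red copies could be split or dropped in counting, and how multi-mapping reads were treated is not given in the sources used here. The values of opn1mw2, opn1mw3, opn1mw4 and opn1lw1 beside their abundant neighbours are therefore uncertain.

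The opsins spanned the whole range of expression in the embryo. By mean CPM over all libraries, rho ranked 29 of 37660 genes, opn1sw1 38, opn1mw1 120, opn1lw2 295, opn1sw2 1257 and opn1mw2 8608. The counts of rho were 43859 to 148729 per library, so counting error was small beside the spread between libraries. The other members of the arrays were close to undetected. The red opsin opn1lw1 had 3 to 36 counts per library. The green opsin opn1mw3 had 0 to 9 counts and was at 0 in 7 libraries, and opn1mw4 had 0 to 4 counts, was at 0 in 16 libraries and reached 15 counts in all. A library with no count allows a level of up to 0.103 CPM, taking 3 counts in the smallest library, for counting error only. The filter on low counts kept 27010 genes, 7 of the 9 opsins among them, and left opn1mw3 and opn1mw4 untested.

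Per kilobase of gene length, the 6 abundant opsins took the same order in 24 of 24 libraries: rho, opn1sw1, opn1mw1, opn1lw2, opn1sw2 and opn1mw2. Rod opsin mRNA thus exceeded that of each cone opsin in every library. The level of rho per kb was 1.3 to 1.74 times that of opn1sw1, with a median of 1.53. The level of opn1sw1 per kb was 1.63 to 2.55 times that of opn1mw1, and that of opn1mw1 was 2.1 to 3.64 times that of opn1lw2. Further down, opn1lw2 per kb was 2.53 to 4.18 times opn1sw2, and opn1sw2 was 4.36 to 11.2 times opn1mw2. Neighbours in this order were separated in every library, so their order lay outside the spread between libraries. Below them, opn1mw2 per kb was 13.7 to 110 times opn1lw1, which was above opn1mw3 in 24 libraries, while opn1mw3 exceeded opn1mw4 in 17 and equalled it in 5.

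**Figure D1:**
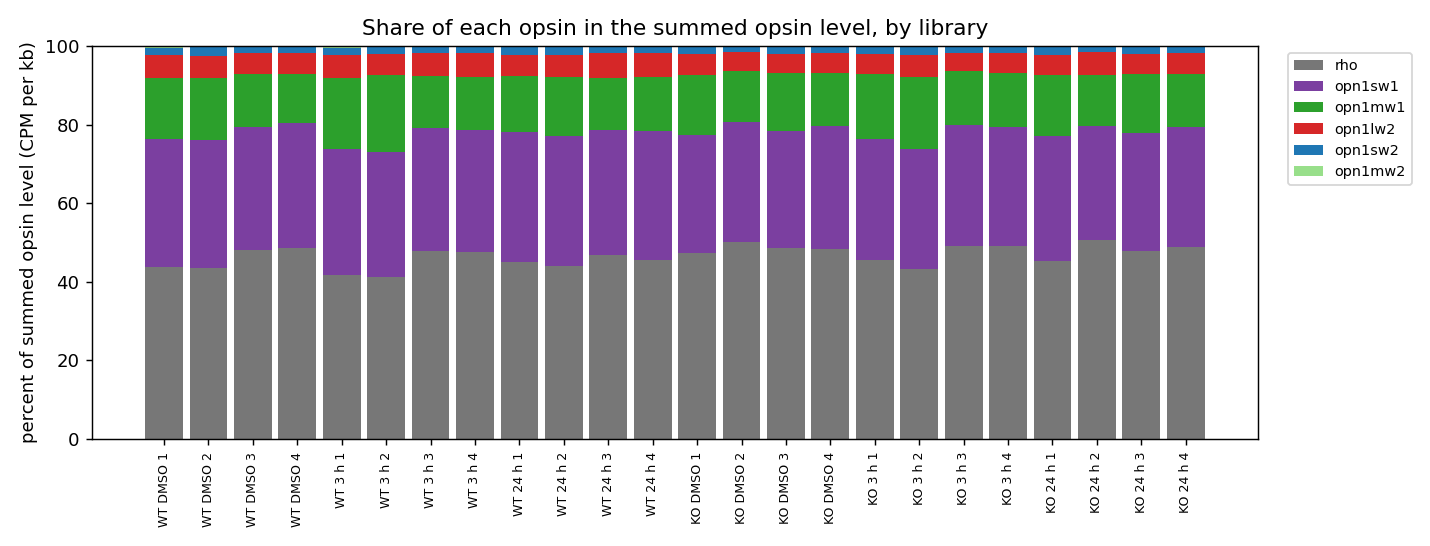
Share of each opsin in the summed opsin level per kb (percent, vertical axis) in each of the 24 libraries (horizontal axis, by group and replicate), as stacked bars that start at 0. The share of rho was 41.2 to 50.5% and that of opn1sw1 29.1 to 33.2%, and the order of the segments was the same in every library.

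As the plot of opsin shares shows, the same opsins led the mixture in both genotypes. Of the summed opsin level per kb, rho made up 41.2 to 48.7% in the WT libraries and 43.2 to 50.5% in the KO libraries. The ultraviolet opsin opn1sw1 made up 31.1 to 33.2% and 29.1 to 31.7%. The green opsin opn1mw1 made up 12.5 to 19.5% of the level in WT and 12.9 to 18.4% in KO, the red opsin opn1lw2 5.27 to 6.38% and 4.65 to 5.66%, and the blue opsin opn1sw2 1.55 to 2.07% and 1.35 to 2.01%. These ranges overlapped between genotypes for each of the 5 genes. The median KO share was nevertheless below the lowest WT share for opn1sw1 (30.6%) and opn1lw2 (5.145%). Their WT medians were 31.9% and 5.72%. The median of rho was 45.2% in WT and 48.5% in KO. Medians of opn1mw1 were 13.96% and 14.15%, and those of opn1sw2 1.73% and 1.705%. Differences in share were not tested.

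The level of rho, the rod opsin, was 3648, 3296, 3543 and 3572 CPM in the 4 WT DMSO libraries, 2661, 2384, 3341 and 3786 CPM in WT at 3 h of ML233, and 3401, 3287, 3244 and 2935 CPM in WT at 24 h. In the KO libraries the level of rho was 3574, 1757, 3652 and 1715 (DMSO), 3191, 2805, 1505 and 1678 (3 h) and 3191, 1833, 3738 and 1375 CPM (24 h). Each KO group held a pair of libraries within or near the WT range and a pair far below it, and the KO and WT ranges overlapped at each treatment. The mean level was 3514 ± 152 CPM (SD, n = 4) in WT DMSO and 2674 ± 1084 CPM (SD, n = 4) in KO DMSO, so the SD of the KO group exceeded the difference.

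The level of opn1sw1, the ultraviolet cone opsin, was 3121, 2828, 2648 and 2674 CPM in WT DMSO, 2347, 2116, 2529 and 2837 CPM in WT at 3 h, and 2892, 2847, 2541 and 2435 CPM in WT at 24 h. In KO it was 2615, 1240, 2578 and 1274 (DMSO), 2470, 2280, 1088 and 1185 (3 h) and 2561, 1214, 2703 and 988 CPM (24 h). All 4 KO DMSO libraries lay below all 4 WT DMSO libraries, with 2615 CPM as the highest KO and 2648 CPM as the lowest WT level. The same KO libraries as for rho were low.

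**Figure D2:**
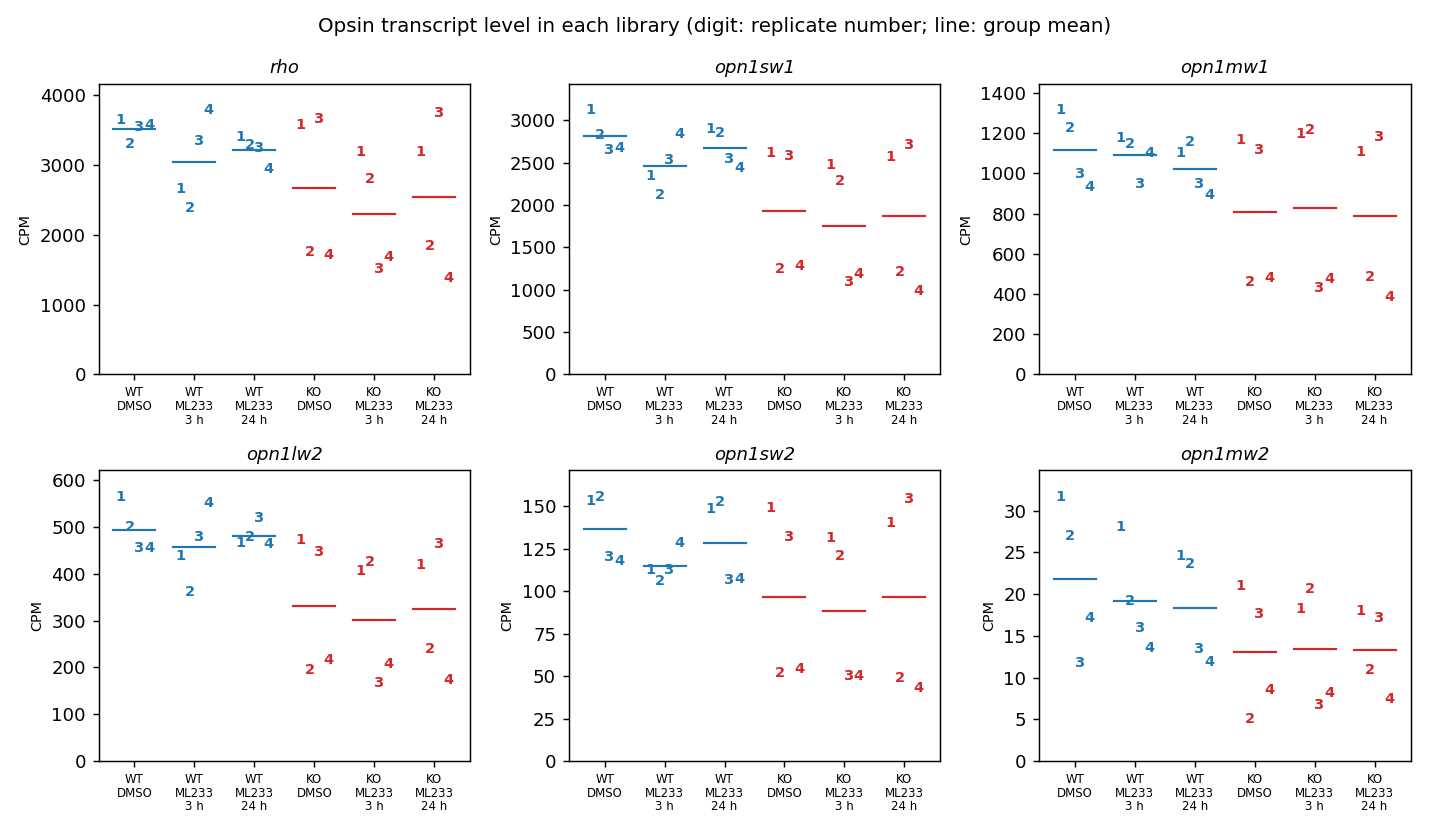
Level of each of the 6 abundant opsins (CPM, vertical axis) in the 24 libraries, 1 panel per gene, with groups on the horizontal axis. Digits are libraries by replicate number, blue for WT and red for KO, and lines are group means (n = 4). In each KO group 2 libraries sit near the WT libraries and 2 sit lower, for example rho at 3574 and 3652 against 1757 and 1715 CPM in KO DMSO.

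The level of opn1mw1, the early green cone opsin, was 1315, 1228, 999 and 931 CPM in WT DMSO, 1176, 1147, 946 and 1103 CPM in WT at 3 h, and 1102, 1154, 946 and 894 CPM in WT at 24 h. In KO it was 1168, 462, 1115 and 481 (DMSO), 1195, 1215, 430 and 472 (3 h) and 1106, 485, 1182 and 387 CPM (24 h). WT replicates 1 and 2 were higher than WT replicates 3 and 4 at each treatment, and the higher pair of KO libraries was within the WT range in DMSO, above it at 3 h and partly above it at 24 h. The lower pair was below every WT library.

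The level of opn1lw2, the early red cone opsin, was 564, 499, 455 and 456 CPM in WT DMSO, 438, 362, 479 and 551 CPM in WT at 3 h, and 466, 478, 518 and 464 CPM in WT at 24 h. In KO it was 472, 194, 446 and 215 (DMSO), 406, 426, 167 and 208 (3 h) and 419, 240, 463 and 174 CPM (24 h). The KO libraries at 24 h all lay below the WT libraries at 24 h, with 463 CPM as the highest KO and 464 CPM as the lowest WT level, and the groups overlapped in DMSO and at 3 h.

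The blue cone opsin opn1sw2 had a level of 153, 155, 120 and 118 CPM in WT DMSO, 112, 106, 112 and 128 CPM in WT at 3 h, and 148, 152, 107 and 107 CPM in WT at 24 h. In KO its level was 149, 51.8, 132 and 54.0 (DMSO), 131, 121, 50.0 and 50.2 (3 h) and 140, 48.7, 154 and 43.2 CPM (24 h). The higher KO pair was inside the WT range in DMSO and reached above it at 3 h and at 24 h, and the lower pair was below every WT library.

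The second green opsin, opn1mw2, was far below its neighbour. Its level was 31.6, 26.9, 11.8 and 17.1 CPM in WT DMSO, 28.0, 19.2, 15.9 and 13.6 CPM in WT at 3 h, and 24.6, 23.5, 13.4 and 11.9 CPM in WT at 24 h. In KO it was 21.0, 5.04, 17.6 and 8.48 (DMSO), 18.2, 20.6, 6.75 and 8.10 (3 h) and 18.0, 10.9, 17.1 and 7.40 CPM (24 h). WT replicates 1 and 2 were above WT replicates 3 and 4 at each treatment here too. Per kb, opn1mw2 was 1.03 to 2.28% of opn1mw1.

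The scarce members had too few counts to resolve differences between single libraries. The red opsin opn1lw1 had 12, 22, 7 and 20 counts in WT DMSO, 13, 20, 6 and 4 in WT at 3 h, and 17, 11, 20 and 17 in WT at 24 h. In KO it had 11, 11, 16 and 13 counts in DMSO, 27, 15, 9 and 12 at 3 h, and 26, 3, 36 and 11 at 24 h, overlapping WT at each treatment. The green opsin opn1mw3 had 1 to 7 counts in each of the 12 WT libraries and 0 counts in all 6 KO libraries that stood apart, beside 0 to 9 in the other KO libraries. These 6 libraries were also those with the lowest levels of the abundant opsins. Whether opn1mw3 differed between groups was not tested, because the filter on low counts left it out. The few counts of opn1mw4 fell in 8 libraries of 4 groups.

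The study set ML233 against DMSO in each genotype. No opsin passed the test at either time in either genotype. In edgeR's quasi-likelihood test, 0 of 7 tested opsins and 0 of 27010 genes (0%) had an adjusted p under 0.05 in each of the 4 comparisons of ML233 with DMSO. At an unadjusted p under 0.05 there were also 0 opsins, beside 455 genes (1.68%) in WT at 3 h, 251 (0.929%) in WT at 24 h, 409 (1.51%) in KO at 3 h and 761 (2.82%) in KO at 24 h. DESeq2 called 2, 0, 0 and 0 genes in these comparisons and 0 opsins.

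The point estimates in WT were small and mostly negative. In WT at 3 h the log2 fold change of rho was -0.21 (SE 0.296, 95% interval -0.82 to 0.41), that of opn1sw1 was -0.20 (-0.84 to 0.45) and that of opn1sw2 was -0.25 (-1.08 to 0.58). For the green opsin opn1mw1 it was -0.03 (-0.80 to 0.74) and for the red opsin opn1lw2 -0.11 (-0.77 to 0.55). Changes inside these intervals were not detectable with the spread in this fit. It shares 1 estimate of spread over all 6 groups, the split KO groups included, and leaves out the pairing of replicate numbers described below. With replicate number as a block, the intervals in WT at 3 h were narrower. They were -0.7 to 0.26 for rho (SE 0.23), -0.71 to 0.31 for opn1sw1 and -0.87 to 0.41 for opn1sw2. Those of opn1mw1 (-0.63 to 0.59) and opn1lw2 (-0.69 to 0.45) included 0 as well. Without the 6 KO libraries that stood apart, left out after seeing the data, the WT intervals at 3 h were narrower still. They were -0.46 to 0.05 for rho (SE 0.12), -0.39 to 0 for opn1sw1 (SE 0.092) and -0.52 to 0.02 for opn1sw2 (SE 0.13). In that fit 0 genes passed the test, and opn1sw1 had an unadjusted p of 0.0498. In WT at 24 h with all libraries and without the block, the log2 fold changes of the 6 abundant opsins were -0.25 to -0.04, with rho at -0.13 (-0.74 to 0.49). With the block rho was at -0.12 (-0.6 to 0.36).

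In KO the log2 fold change of rho was -0.22 (-0.84 to 0.39) at 3 h and -0.08 (-0.69 to 0.54) at 24 h, and that of opn1mw1 was 0.04 (-0.73 to 0.81) and -0.03 (-0.80 to 0.74). These KO values are without the block. With it, the KO intervals at 24 h were -0.58 to 0.39 for rho and -0.67 to 0.55 for opn1mw1. The block fit also held the KO libraries at 3 h, whose replicate numbers did not match those of KO DMSO. Their mismatch enters the KO block terms and the spread behind every interval of that fit, those of WT included. Without the block, the median over the 7 tested opsins was -0.20 in WT at 3 h and -0.09 in WT at 24 h. It was -0.13 in KO at 3 h and -0.03 in KO at 24 h. Both comparisons of a genotype use the same 4 DMSO libraries. Whether KO responded otherwise than WT was also tested directly, as an interaction. It passed for 0 of 7 opsins and 0 of 27010 genes (0%) at 3 h and at 24 h, with 0 opsins at an unadjusted p under 0.05 beside 251 (0.929%) and 309 (1.14%) genes. DESeq2 called 1 gene and 0 genes. For rho the KO response minus that of WT was -0.01 (-0.88 to 0.86) at 3 h and 0.05 (-0.82 to 0.92) at 24 h on the log2 scale.

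**Figure D3:**
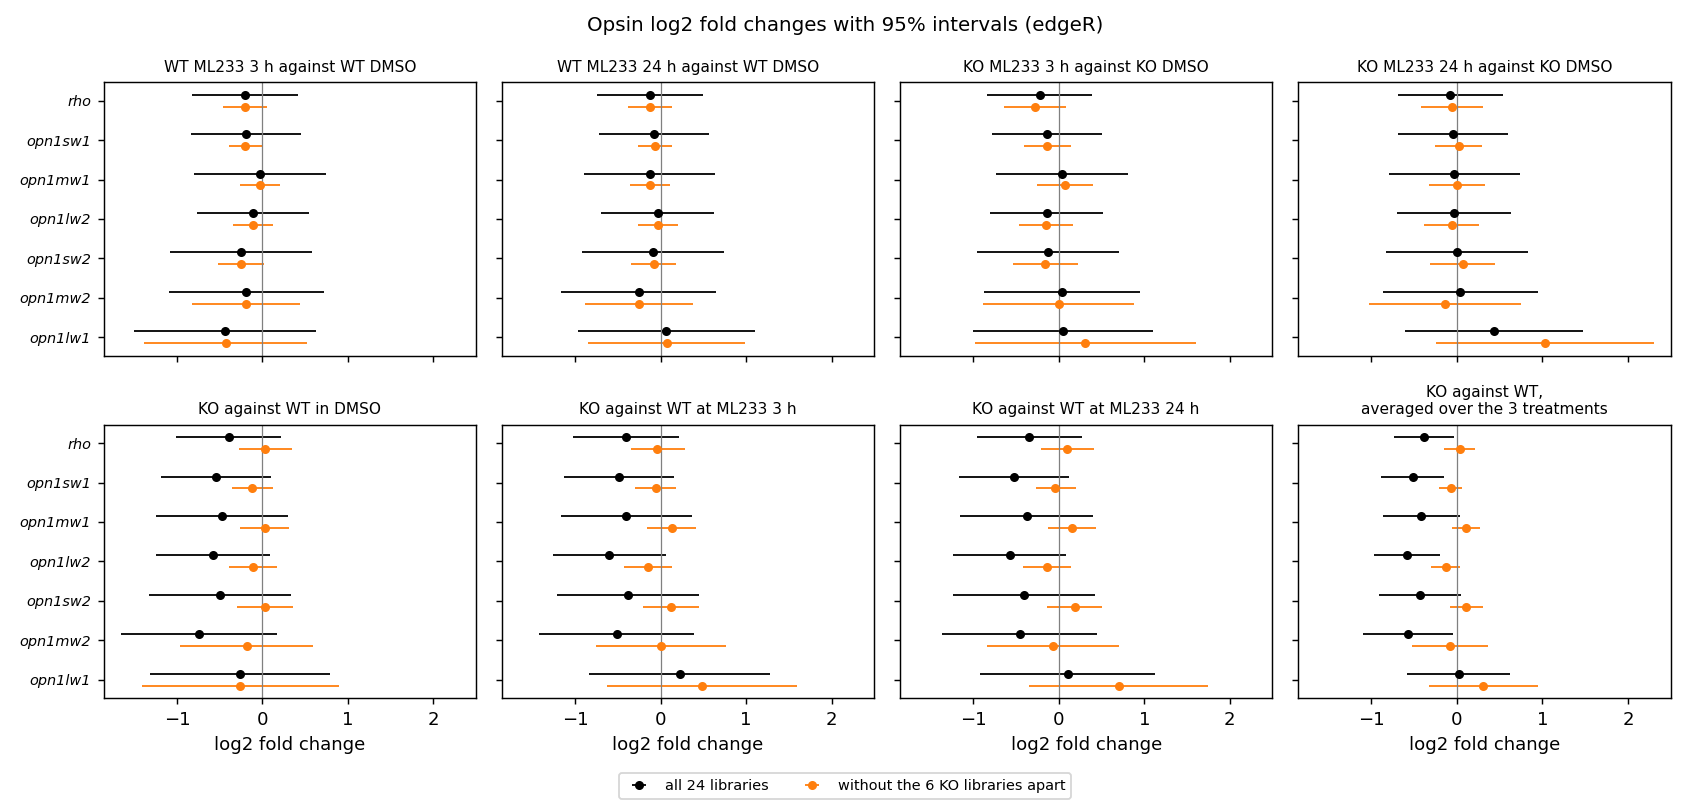
Log2 fold changes of the tested opsins (horizontal axis) with 95% intervals (lines) from edgeR, for the ML233 comparisons and for KO against WT, with all libraries (black) and without the 6 KO libraries that stood apart (orange). With all libraries the intervals of the ML233 comparisons all include 0, and in KO against WT averaged over treatments opn1lw2 at -0.58 has the interval -0.97 to -0.20.

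The 3 h comparison in WT was also made on fewer libraries. With WT replicates 3 and 4 and the 6 KO libraries that stood apart left out, a choice made after seeing the data, 3 opsins passed the test as lower in WT at 3 h than in DMSO. They were rho at a log2 fold change of -0.46 (adjusted p = 0.0432), opn1sw1 at -0.41 (adjusted p = 0.0202) and opn1sw2 at -0.49 (adjusted p = 0.0104), with opn1lw2 at -0.41 (adjusted p = 0.0798), opn1mw1 at -0.13 and opn1mw2 at -0.31 not passing. In the same fit 89 genes (0.328%) were called, and each group held 2 libraries. Those 2 libraries resembled each other more than they resembled the ones left out. These p-values therefore measure only the spread within such pairs and cannot decide whether WT as a whole responded. Whether WT replicates 1 and 2 responded otherwise than replicates 3 and 4 was not tested. Among the levels above, WT replicates 1 and 2 of the 3 h group had rho at 2661 and 2384 CPM, below replicates 1 and 2 in DMSO at 3648 and 3296 CPM, while replicate 4 at 3 h had 3786 CPM. The summed level of 5 lens markers was also low in those 2 libraries at 3 h, at 811 and 661 CPM, against 1365 and 1218 CPM in WT DMSO replicates 1 and 2 and 1147 and 1145 CPM in replicates 3 and 4 at 3 h, and its part in the opsin result was not tested. The KO libraries that remained gave rho at -0.27 (adjusted p = 0.248), opn1sw1 at -0.13 and opn1sw2 at -0.16 for 3 h against DMSO.

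The study also set KO against WT at each treatment. No opsin passed the test in a single treatment. In DMSO 0 of 7 opsins were called beside 40 genes (0.148%, lower 0.0444%). At 3 h 0 were called beside 40 genes (0.148%, lower 0.0481%), and at 24 h 0 beside 124 genes (0.459%, lower 0.0889%). All 6 abundant opsins had negative log2 fold changes at each treatment. In DMSO these were -0.39 (-1.01 to 0.22) for rho, -0.55 (-1.19 to 0.10) for opn1sw1, -0.47 (-1.24 to 0.30) for opn1mw1, -0.57 (-1.24 to 0.09) for opn1lw2, -0.50 (-1.33 to 0.33) for opn1sw2 and -0.75 (-1.66 to 0.17) for opn1mw2. The medians over the 7 opsins were -0.50 in DMSO, -0.41 at 3 h and -0.41 at 24 h. Full separation of 4 KO from 4 WT libraries held for opn1sw1 in DMSO, where 7.08% of all tested genes separated, and for opn1lw2 at 24 h, where 5.86% did.

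Averaged over the 3 treatments, 1 opsin passed the test. The red cone opsin opn1lw2 was lower in KO, with a log2 fold change of -0.58 (SE 0.185, interval -0.97 to -0.20, adjusted p = 0.0355), which is a level 0.668 times that of WT. In this comparison 4237 genes (15.7%) were called, 1700 (6.29%) lower and 2537 (9.39%) higher, so 1 of 7 is near the background. The ultraviolet opsin opn1sw1 had -0.52 (SE 0.179, adjusted p = 0.0532) and just missed the threshold. The values were -0.38 (adjusted p = 0.138) for rho, -0.42 (0.207) for opn1mw1, -0.43 (0.226) for opn1sw2, -0.57 (0.133) for opn1mw2 and 0.02 (0.979) for opn1lw1, given as log2 fold changes with adjusted p. At an unadjusted p under 0.05 were 4 of 7 opsins beside 29.2% of all tested genes. This average counts libraries of 3 treatments as independent, which the labels do not show.

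The call of opn1lw2 depended on single libraries. It was lost when any 1 of 11 of the 24 libraries was left out, with adjusted p of 0.0503 to 0.0687: WT DMSO replicate 1, WT 3 h and 24 h replicates 3 and 4, and each of the 6 KO libraries that stood apart. With 1 of the other 13 left out it held, at adjusted p of 0.0166 to 0.0494. The opn1sw1 difference passed (adjusted p = 0.0227 to 0.0384) when 1 of the other 6 KO libraries was left out. DESeq2 called both genes, opn1lw2 at adjusted p = 0.0158 and opn1sw1 at 0.0294. The share of all genes that DESeq2 called in this average is not given here, so its 2 calls have no background beside them. In DMSO alone DESeq2 called 402 genes in KO against WT, where edgeR called 40. Without the 6 KO libraries that stood apart, a choice made after seeing the data, no opsin was called, beside 1110 genes (4.07%). These libraries held the lowest level of each abundant opsin, so leaving them out had to raise its KO mean. The log2 fold changes were then 0.03 (-0.15 to 0.21) for rho, -0.07 (-0.21 to 0.06) for opn1sw1, 0.11 (-0.08 to 0.30) for opn1sw2, 0.10 (-0.06 to 0.27) for opn1mw1 and -0.13 (-0.30 to 0.03; adjusted p = 0.327) for opn1lw2. Without WT replicates 3 and 4 as well, opn1mw2 was the 1 opsin called, at -0.45 (adjusted p = 0.00501), beside 2709 genes (9.99%). That p-value too measures only the spread within pairs of alike libraries.

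The low levels lay in the same 6 KO libraries for each abundant opsin. These were DMSO replicates 2 and 4, 3 h replicates 3 and 4, and 24 h replicates 2 and 4, the libraries that stood apart on genes other than opsins. In them rho was at 39.1 to 52.2% of its WT DMSO mean, opn1sw1 at 35.1 to 45.2%, opn1mw1 at 34.6 to 43.4%, opn1lw2 at 33.9 to 48.6%, opn1sw2 at 31.7 to 39.6% and opn1mw2 at 23.0 to 49.9%. In the other 6 KO libraries rho was at 79.8 to 106%, opn1sw1 at 80.9 to 95.9%, opn1mw1 at 98.9 to 109%, opn1lw2 at 82.2 to 95.6%, opn1sw2 at 88.5 to 113% and opn1mw2 at 78.3 to 96.0%. All 9 opsins together took 0.269 to 0.353% of the counts of the 6 low libraries, 0.724 to 0.874% of the other KO libraries and 0.640 to 0.893% of the WT libraries. For each abundant opsin the 6 low libraries were below every other library, most closely for opn1mw2, with 10.9 CPM as the highest level among them and 11.8 CPM as the lowest elsewhere. Because these libraries were set apart by their measured values, they were not tested as a group.

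The same libraries differed in other ways. Their aplnrb level was 9.70 to 12.4 CPM, against 16.1 to 17.7 CPM in the other KO libraries. The summed level of a list of inflammation genes was 843 to 1697 CPM there, 196 to 712 CPM in the other KO libraries and 79.8 to 142 CPM in WT. Hatching gland enzymes, which fade with age after hatching, summed to 5.24 to 38.2 CPM there, to 0.0319 to 1.51 CPM in the other KO libraries and to 0.130 to 3.53 CPM in WT. The part of embryo age, of inflammation or of library origin in the opsin levels was not tested. Replicate libraries also resembled each other in pairs. The chi-square of their counts per degree of freedom was 4.15 to 20.1 within the pairs of WT replicates 1 and 2, WT replicates 3 and 4, the 2 low KO libraries of a group and the 2 other KO libraries, and 25.8 to 135 between them, and no pair agreed within sampling noise.

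Ratios between opsins were also compared, since the low KO libraries were low for both rod and cone opsins. Per kb, the ratio of opn1mw1 to rho was 0.354, 0.366, 0.277 and 0.256 in WT DMSO, 0.434, 0.472, 0.278 and 0.286 in WT at 3 h, and 0.318, 0.345, 0.286 and 0.299 in WT at 24 h. In KO it was 0.321, 0.258, 0.300 and 0.276 in DMSO, 0.368, 0.425, 0.281 and 0.276 at 3 h, and 0.340, 0.260, 0.311 and 0.277 at 24 h. The low KO libraries, at 0.258 to 0.281, lay within the range of WT replicates 3 and 4, at 0.256 to 0.299. WT replicates 1 and 2 and the other KO libraries were higher, at 0.318 to 0.472 and 0.300 to 0.425, with the highest values of both genotypes at 3 h.

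**Figure D4:**
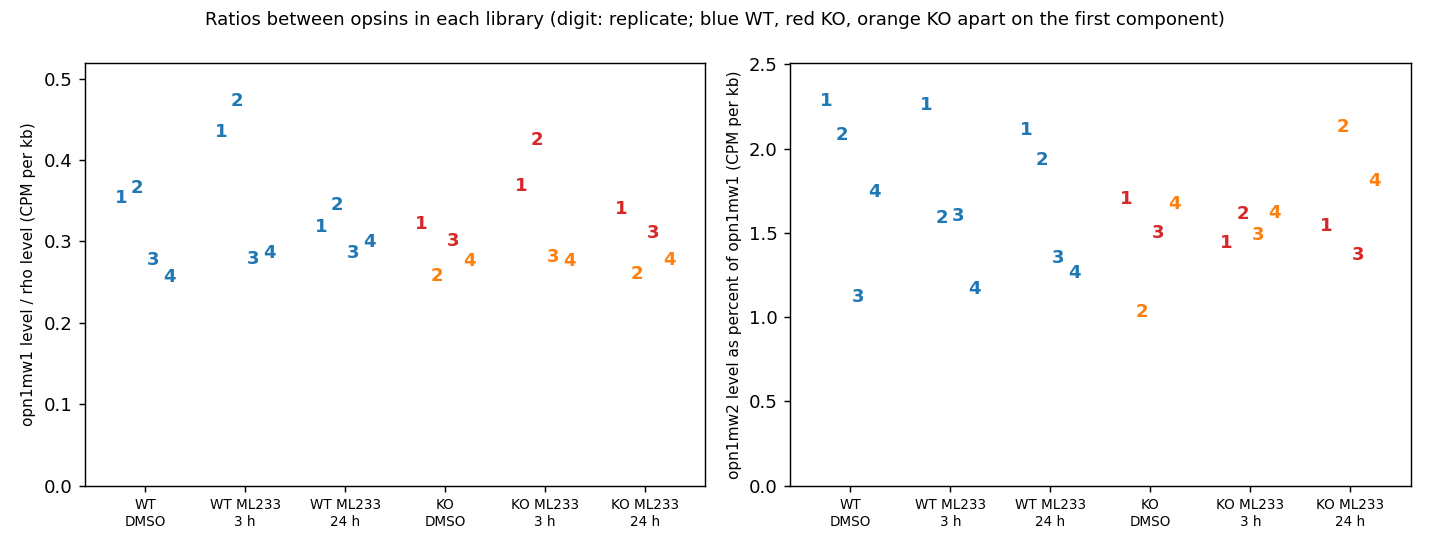
Ratio of opn1mw1 to rho (left) and opn1mw2 as a percentage of opn1mw1 (right), both from CPM per kb, in each library by group; digits are replicate numbers, blue for WT, orange for the 6 low KO libraries and red for the other KO libraries. The ratio of opn1mw1 to rho was 0.256 to 0.299 in WT replicates 3 and 4 and 0.318 to 0.472 in WT replicates 1 and 2, and the percentage was 1.03 to 2.28 over all libraries.

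The ratio of opn1sw1 to rho was 0.740 to 0.772 in WT replicates 1 and 2, 0.650 to 0.722 in WT replicates 3 and 4, 0.614 to 0.707 in the other KO libraries and 0.576 to 0.646 in the low KO libraries. The ratio of opn1lw2 to rho was 0.117 to 0.141, 0.109 to 0.137, 0.104 to 0.130 and 0.0945 to 0.112 in the same order. The ranges of both ratios overlapped between the low and the other KO libraries. The ratio of opn1sw2 to rho was 0.0423 to 0.0476, 0.0332 to 0.0368, 0.0364 to 0.0443 and 0.0268 to 0.0336 in that order, with no overlap between the low and the other KO libraries. As the plot of opsin ratios shows, opn1mw2 was at 1.59 to 2.28% of opn1mw1 in WT replicates 1 and 2 and at 1.12 to 1.74% in WT replicates 3 and 4, and these ranges overlapped.

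Signalling downstream of the opsins runs through transducin, a phosphodiesterase and cyclic nucleotide-gated channels, and arrestins and kinases end it. Of 51 such phototransduction genes listed, 43 were tested. In KO against WT averaged over treatments 9 of 43 were lower and 0 higher by edgeR, with a median log2 fold change of -0.48, beside 6.29% of all genes called lower and an all-gene median of -0.007. The guanylate cyclase activator guca1b fell by 1.2 on the log2 scale (adjusted p = 0.00782). Its level was low, at 0.449 to 2.58 CPM in WT and 0.201 to 0.775 CPM in KO, and these ranges overlapped. The cone arrestins fell too, arr3a by 1.01 (adjusted p = 3e-06) and arr3b by 0.96 (adjusted p = 0.000443). The transducin subunit gene gnb3a fell by 0.92 (adjusted p = 0.00437). The most abundant members, gnb3b at -0.41 (adjusted p = 0.163) and the cone transducin gene gnat2 at -0.48 (adjusted p = 0.18), did not pass. Without the 6 low KO libraries 4 of 44 were lower, arr3a, arr3b, cnga3b and rcvrn3, beside 2.28% of all tested genes (623 of 27275), and the median was 0.04. Without WT replicates 3 and 4 as well 7 of 44 were lower, beside 1303 of 27114 tested genes, and the median was -0.12. The calls in that last fit rest on the spread within pairs of alike libraries.

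The cone arrestins separated the genotypes where the opsins did not. The level of arr3a was 136, 123, 132 and 141 CPM in WT DMSO, 114, 113, 141 and 168 CPM in WT at 3 h, and 138, 147, 142 and 134 CPM in WT at 24 h. In KO it was 84.3, 62.2, 85.7 and 59.1 (DMSO), 66.6, 75.8, 51.7 and 49.0 (3 h) and 80.7, 61.2, 79.1 and 53.8 CPM (24 h). All 12 KO libraries lay below all 12 WT libraries for arr3a, for arr3b (32.2 to 82.1 against 86.4 to 136 CPM) and for rs1a (62.2 to 94.5 against 97.3 to 152 CPM), which encodes the retinal adhesion protein retinoschisin. This held for 60 of 27010 genes (0.222%) and for 0 of the 7 tested opsins. In the single treatments arr3a was the 1 phototransduction gene called, at -0.87 in DMSO (adjusted p = 0.0335), -1.14 at 3 h (adjusted p = 0.00858) and -1.03 at 24 h (adjusted p = 0.00844). With only the groups compared in the fit, 0 phototransduction genes were called in each treatment. The DMSO call was lost when any 1 of 7 libraries was left out (each WT DMSO library, WT 24 h replicate 1, and KO DMSO replicates 2 and 4), the 3 h call without WT 3 h replicate 4, and the 24 h call without WT 24 h replicate 4. Without the 6 low KO libraries arr3a had -0.65 in DMSO (adjusted p = 0.0955), -0.93 at 3 h (adjusted p = 0.0183) and -0.82 at 24 h (adjusted p = 0.0223). In that setting arr3a had -0.80 (adjusted p = 6.37e-05) and arr3b -0.61 (adjusted p = 0.00445) averaged over treatments, beside -0.13 for opn1lw2 and -0.07 for opn1sw1. The libraries left out held the lowest level of each abundant opsin, so the smaller opsin differences were fixed by that choice. They also held the lowest arr3a levels, at 49.0 to 62.2 CPM against 66.6 to 85.7 CPM in the other KO libraries. The smaller arr3a difference was thus fixed in the same way. Leaving them out also lowers the spread that these p-values measure. The contrast of arrestins with opsins was not tested.

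Factors known to set opsin expression were partly lower. Of 19 tested photoreceptor transcription factors 8 were called lower and 1 higher in KO averaged over treatments, beside 6.29% and 9.39% of all tested genes, with a median of -0.32. The photoreceptor factor crx fell by 0.92 (adjusted p = 0.00107), and six7 and six6b, known for green opsin expression in zebrafish, fell by 0.47 (adjusted p = 0.00057) and 0.52 (adjusted p = 0.0106) on the log2 scale. The photoreceptor gene samd7 had -0.50 (adjusted p = 0.0254). The level of crx was 14.5 to 47.1 CPM in WT and 13.8 to 21.3 CPM in KO, and these ranges overlapped. Without the 6 low KO libraries crx and six7 were called, at -0.88 (adjusted p = 0.0474) and -0.39 (adjusted p = 0.0435), beside 2.28% of all tested genes called lower. Without WT replicates 3 and 4 as well these were -0.33 (adjusted p = 0.0402) and -0.18 (adjusted p = 0.0412). The list medians in these 2 settings were -0.13 and 0. The summed level of the list was 740.9 to 772.9 CPM in WT replicates 3 and 4 and 583.5 to 703.3 CPM in WT replicates 1 and 2. It was 585.1 to 691.1 CPM in the other KO libraries and 486.9 to 537.6 CPM in the low ones.

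Factors tied to single cone or rod types did not pass the test. The log2 fold change of foxq2, known for blue opsin expression in zebrafish, was -0.36 (adjusted p = 0.23), that of thrb, the thyroid hormone receptor known for red cones, was -0.27 (adjusted p = 0.113), and those of the rod factors nr2e3 and nrl were -0.25 (adjusted p = 0.668) and -0.39 (adjusted p = 0.41). The row of tbx2b, known for ultraviolet cones, held 0 counts in all 24 libraries. No listed factor was called under ML233, where 0 genes were called in any list.

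Lists of the surrounding machinery had negative medians too, and their counts stand beside 6.29% of all tested genes called lower. Of 20 tested outer segment genes 3 were lower in KO averaged over treatments, with a median of -0.33: rs1a at -0.59, impg1a at -0.35 and tulp1a at -0.26. Of 20 visual cycle genes, which supply and recycle the chromophore, 4 were lower, with a median of -0.34: rpe65a at -0.83, rpe65c at -0.51, rlbp1a at -0.39 and rdh8a at -0.36. Of 26 non-visual opsins 4 were lower, with a median of -0.26: opn6a at -0.68, rgra at -0.66, parietopsin at -0.36 and rgrb at -0.30. Without the 6 low KO libraries these lists had 1, 3 and 1 lower genes, beside 2.28% of all tested genes, and medians of 0.06, -0.15 and -0.03. Without WT replicates 3 and 4 as well they had 4, 5 and 4 lower genes, beside 1303 of 27114 tested genes. Their medians were then -0.11, -0.11 and -0.1. With all libraries the rod markers had 0 of 6 called with a median of -0.35, and the cone markers 2 of 7, both arrestins, with a median of -0.57.

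**Figure D5:**
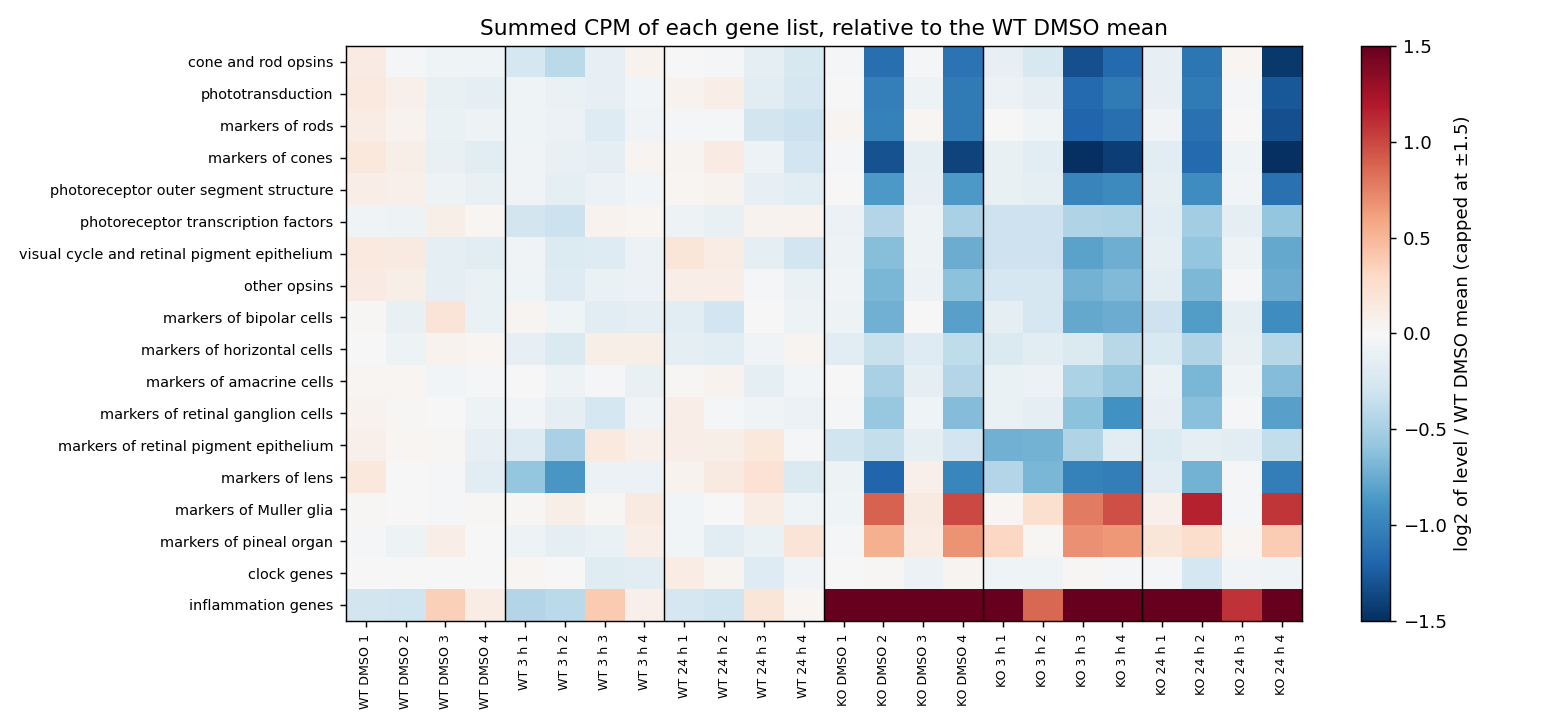
Summed CPM of each gene list (rows) in each library (columns), colored by the log2 of its ratio to the WT DMSO mean, blue below and red above, with colors capped at ±1.5. As percentages of that mean, in the 6 low KO libraries the opsins were at 36.7 to 47.3%, phototransduction genes at 41.5 to 49.1% and markers of bipolar cells at 53 to 60.8%.

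Marker lists of other eye cells and of the pineal organ were summed too. As the plot of list levels shows, in the 6 low KO libraries the summed level was 33.3 to 44.4% of the WT DMSO mean for cone markers and 40.1 to 49.5% for rod markers. It was 53 to 60.8% for bipolar cells, 53.5 to 67.7% for retinal ganglion cells, 62.3 to 74.0% for amacrine cells and 73.4 to 86.2% for horizontal cells. Markers of the lens were at 44.0 to 61.0%, those of the retinal pigment epithelium at 73.0 to 91.0% and those of the pineal organ at 120 to 161%. The pineal sum was small, at 17.45 to 22.18 CPM in WT. Its member crema alone was at 5.33 to 11.3 CPM in WT and 8.37 to 20.9 CPM in KO, so the higher sum need not hold for the whole list. The Müller glia markers, whose list includes genes that other tissues also express, were at 171 to 223%. In whole-embryo RNA, genes of the other lists can also come from outside the eye. In WT, gad1b (183 to 233 CPM) and slc32a1 (114 to 160 CPM) made up much of the amacrine sum of 487 to 554 CPM. Likewise lhx1a (56.0 to 70.2 CPM) made up most of the horizontal cell sum of 66.2 to 81.9 CPM. These sums therefore do not measure the eye alone. In the other 6 KO libraries cone markers were at 89.1 to 97.6%, rod markers at 95.6 to 103% and bipolar markers at 80.9 to 100%. Ganglion cell markers were at 90.7 to 98.7% there, amacrine markers at 90.6 to 99.3% and horizontal cell markers at 85.3 to 92.5%. Pineal markers were at 99.1 to 124% and Müller glia markers at 95.4 to 118%. Pigment epithelium markers were at 60.8 to 90.7%, so their low level was not particular to the 6 low libraries. Lens markers were at 62.4 to 105%, and at 54.4 to 112% in WT replicates 1 and 2.

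The genes of these lists called in KO against WT averaged over treatments stand beside 6.29% of all tested genes called lower and 9.39% called higher. Lower were vsx1 of the bipolar markers (1 of 4, at -0.65), lhx1a of the horizontal cell markers (1 of 4), slc32a1 and gad1b of the amacrine markers (2 of 4), 4 of 5 ganglion cell markers, rpe65a of the pigment epithelium (1 of 5) and crygm2d1 of the lens (1 of 5, at -0.59). Higher were apoeb and glula of the Müller glia markers (2 of 4, at 0.75 and 0.45), with rlbp1a lower, and crema of the pineal markers (1 of 4, at 0.74). Without the 6 low KO libraries 0 bipolar, horizontal, amacrine, ganglion cell, lens and pineal markers were called. In that setting 2 of 5 pigment epithelium markers were lower, rpe65a and pmela, and of the 4 Müller glia markers gfap was lower and none was higher. The shares of all tested genes were then 2.28% called lower and 1.79% called higher. The pineal rhodopsin exorh was listed among the non-visual opsins and the pineal markers, and it was not examined by itself.

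Clock genes were listed because groups may have been collected at different hours. In KO against WT averaged over treatments they had 0 of 31 called and a median of 0.02. That average compares genotypes, so an hour difference between treatments that both genotypes share would cancel in it. It therefore cannot show whether the treatments differed in the hour of collection. Without the 6 low KO libraries 1 of 31 was lower, per2, beside 2.28% of all tested genes called lower. Without WT replicates 3 and 4 as well 5 of 31 were lower: per2, cry1aa, cry5, nr1d2b and tefa. In that setting 1303 of 27114 tested genes were called lower, and 9.99% were called in either direction. In the average with all libraries, both tested hatching gland genes had higher values in KO without passing. They were he1.1 at 2.16 (adjusted p = 0.0552) and he1.2 at 2.26 (adjusted p = 0.0741). Without the 6 low KO libraries 1 such gene was tested, and it had -1.01 without being called. Without WT replicates 3 and 4 as well the 1 gene tested had 0.66 and was not called. All 15 tested inflammation genes were higher, with a median of 3.90, among them il11b at 6.64 and lepb at 5.86, and 13 of 15 without the 6 low KO libraries. That list was drawn from earlier results of these data and is no independent evidence.

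The opsins moved together across libraries. Over the 24 libraries the Pearson correlation of log2 CPM between pairs of the 6 abundant opsins was 0.754 (rho with opn1mw2) to 0.983 (opn1sw1 with opn1lw2), and 0.23 to 0.37 for opn1lw1 with each of them. Among 13884 other genes, those most like rho were rom1b (0.966), an outer segment membrane gene, abca4b (0.963), the retinal transporter, grk1a (0.961), rhodopsin kinase, gnat1 (0.961), rod transducin, then scamp5b, slc25a3a, lgsn and gnb3b (0.961 to 0.957). Those most like the summed cone opsins were gnb3b (0.994), gnat1 (0.992), prph2a (0.991), gnat2 (0.988), lactbl1b, ptprb, rgs9a and gnb5b (0.986 to 0.984). These values describe libraries that share whole-embryo tissue and include the 6 low ones, which set much of the range.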

How the data were processed

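RNA from pooled whole embryos was poly(A)-selected and sequenced as paired ends, per the labels' protocols. The authors deposited 1 table of raw read counts per gene for 24 libraries. The submitters' processing notes name HISAT2 2.0.5, StringTie, featureCounts, R 4.3.2, DESeq2 1.42.1 and the GRCz11 build, without roles. The protocol marks strand with dUTP, and the strand setting of counting is not given in the sources used here. No column lacked a sample.

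Counts were analysed with R 4.3.3, edgeR 4.0.16 and limma 3.58.1. Genes were kept by filterByExpr with a minimum count of 10, which left 27010 of 37660 (3840 had no count). Library sizes were scaled by TMM (factors 0.833 to 1.083), and 1 quasi-likelihood model with a term per group held all 24 libraries. Genes were called at a Benjamini-Hochberg adjusted p under 0.05 over all tested genes, two-sided, with intervals at a level of 0.95. CPM use the scaled library sizes, and correlations log2 CPM with a prior count of 2. The script was tested on simulated counts. Figures were drawn with Python 3.11.15 and matplotlib 3.10.9.

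The members and lists were chosen with earlier results of these data known. All 9 opsins are named. From each list the called members, at most 4 with the largest change per comparison, and the 2 most abundant are eligible to be named; the cell type factors, rs1a, and genes called without some libraries were named after their values were seen. The inflammation list was mmp9, mmp13a, il1b, il11a, il11b, cxcl8a, cxcl18b, timp2b, socs3a, socs3b, mpeg1.1, mpx, lyz, saa, tnfa and lepb. Alternatives were DESeq2 1.42.0, no filter on low counts, only the groups compared, a replicate block, each library left out, and the 6 KO libraries (with or without WT replicates 3 and 4) left out.

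Replicate numbers are shared between groups. The correlation of same-numbered libraries' deviations from their group means was over 0.1 for all 4 numbers in WT at 3 h (0.391 to 0.473) and 24 h (0.349 to 0.512) against DMSO, in KO at 24 h (0.487 to 0.624) and in KO against WT at 3 h (0.191 to 0.374), and these were taken as paired from the data. It was not in KO at 3 h, nor in KO against WT in DMSO and at 24 h. The labels state no pairing. Same-numbered libraries that fall in matching pairs of alike libraries would also correlate in this way. The check therefore cannot tell pairing by single numbers from that split.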

Additional observations from a re-analysis of the deposited data

Results flagged for a closer look

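Dixon's test for a single outlying library, at its 95% critical value of 0.829, marked 0 of 60 groups of 4 libraries over 10 opsin measures. For the abundant opsins each KO group held 2 low and 2 higher libraries, a pattern that this test cannot mark, so its result says nothing about those groups.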

How the results depend on the processing

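No opsin call under ML233 changed with DESeq2, the filter, the block or any single library left out. With DESeq2, genes called were 2 in WT at 3 h, 402, 495 and 741 in KO against WT in DMSO, at 3 h and at 24 h (phototransduction genes lower 3, 3 and 3), and 1 in the 3 h interaction. Averaged over treatments 2 opsins were lower and 1 hatching gland gene higher with DESeq2. The share of all genes it called in that average is not given here. With only the groups compared, 0, 0 and 1 genes and 0, 0 and 0 phototransduction genes were called in KO against WT; these fits hold fewer libraries.

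With the replicate block, opn1sw2 in KO had log2 fold changes of 0.002 at 3 h and -0.043 at 24 h (0.001 without it). In KO against WT averaged over treatments the block gave 3 opsins lower (opn1lw2, adjusted p = 0.0172, opn1sw1, 0.0196, and opn1mw2, 0.0479). It also gave 19 phototransduction, 7 non-visual opsin, 9 visual cycle and 7 outer segment genes lower. Same-numbered libraries were not paired in KO against WT in DMSO and at 24 h. The share of all tested genes called with the block is not given here, so these counts have no background beside them. Without the block it was 15.7%, with 6.29% lower. In the 4 comparisons taken as paired the block changed no opsin call.

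Without the 6 KO libraries, chosen after seeing the data, log2 fold changes changed sign in KO at 3 h for opn1mw2 (-0.001) and at 24 h for opn1sw1 (0.018), opn1mw1 (0.001) and opn1mw2 (-0.138). In KO against WT they did so in DMSO for rho (0.035), opn1sw2 (0.034) and opn1mw1 (0.026), at 3 h for opn1sw2 (0.121), opn1mw1 (0.128) and opn1mw2 (0.004), at 24 h for rho (0.097), opn1sw2 (0.186) and opn1mw1 (0.15), and averaged for rho (0.032), opn1sw2 (0.114) and opn1mw1 (0.101). Genes called were 8 at 3 h, 61 at 24 h and 1110 averaged. Phototransduction genes lower were 0 in DMSO, 2 at 24 h and 4 averaged. Averaged, 0 opsins, 2 transcription factors, 1 non-visual opsin and 1 outer segment gene were lower. Without WT replicates 3 and 4 as well, genes called were 89 (3 of them opsins) in WT at 3 h, 1 in WT at 24 h, 97 in KO at 3 h, 1 in KO at 24 h, 246, 111 and 278 in KO against WT in DMSO, at 3 h and at 24 h (4, 4 and 4 phototransduction genes), 2709 averaged (2 transcription factors) and 1 in the 24 h interaction. Signs changed in KO at 24 h for opn1sw1 (0.018), opn1mw1 (0.002) and opn1mw2 (-0.135). In KO against WT they changed in DMSO for rho (0.060), at 3 h for rho (0.244), opn1sw1 (0.084), opn1sw2 (0.200), opn1mw1 (0.047) and opn1lw2 (0.051), at 24 h for rho (0.051) and opn1mw1 (0.020), and averaged for rho (0.118) and opn1sw2 (0.012). The cause was not tested.

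Leaving out 1 library at a time, genes called in KO against WT ranged from 0 to 92 in DMSO, 0 to 154 at 3 h and 0 to 796 at 24 h, and in the 3 h interaction from 0 to 1. Phototransduction genes lower ranged from 0 to 1, 0 to 1 and 0 to 3, and averaged from 6 to 16. Averaged, opsins called ranged from 0 to 2, non-visual opsins from 4 to 7, visual cycle genes from 4 to 8, outer segment genes from 2 to 7 and hatching gland genes from 0 to 2. Log2 fold changes crossed 0 in WT at 3 h for opn1mw1 (-0.112 to 0.049) and opn1mw2 (-0.429 to 0.040) and in WT at 24 h for opn1lw2 (-0.076 to 0.040). In KO at 3 h they did for opn1sw1 (-0.344 to 0.049), opn1sw2 (-0.389 to 0.154), opn1mw1 (-0.206 to 0.272), opn1mw2 (-0.240 to 0.367) and opn1lw2 (-0.350 to 0.082), and at 24 h for rho (-0.326 to 0.132), opn1sw1 (-0.279 to 0.170), opn1sw2 (-0.320 to 0.287), opn1mw1 (-0.291 to 0.203), opn1mw2 (-0.230 to 0.361) and opn1lw2 (-0.258 to 0.184). The order of the 6 abundant opsins did not change with the length scaling.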
